A study of Mus musculus with 6 samples.

Results

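Interferons are secreted proteins that warn neighbouring cells of infection. Type I interferons, among them the product of Ifnb1, bind a receptor built from Ifnar1 and Ifnar2, and interferon gamma, the product of Ifng, binds a receptor built from Ifngr1 and Ifngr2. The kinases Jak1, Jak2 and Tyk2 sit on the inner ends of these chains and phosphorylate STAT proteins, which with Irf9 switch on interferon-stimulated genes; Socs1 binds the kinases and shuts the signal off. These 10 genes, chosen by symbol with no filter on level, are 10 of 18193 with a named probe set, and were read at all 18 of their probe sets, of 45037 tested. Fibroblasts are known to make interferon beta when a virus is sensed and to carry both receptors, whereas interferon gamma is chiefly a product of T cells and natural killer cells.

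The 6 Affymetrix arrays measured total RNA of immortalized mouse embryonic fibroblasts (MEFs) that lack PCAF, a histone acetyltransferase (PCAF-/-). Of these, 3 were labelled PCAF-/-;GCN5+/- and 3 PCAF-/-;GCN5-/-, GCN5 being the related acetyltransferase that is encoded by Kat2a and was conditionally deleted here. The design describes a retrovirus carrying Cre recombinase or vector alone, and the cells went through puromycin selection; the labels name no virus for any array, and the design writes GCN5+/- for both infections. The sample labels were therefore followed, with Cre taken to go with GCN5-/-, and virus and genotype cannot be told apart. In each group A1 and A2 are duplicated RNA preparations from cell line A, and B comes from another line that was immortalized independently. The labels do not say that A1 and A2 were separate cultures, so p-values measure in part a spread that may be technical, with 2 lines behind them. The study asked which genes PCAF and GCN5 regulate, and both groups lack PCAF, so the comparison is of GCN5 state, together with the virus, in cells without PCAF.

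Array medians of the deposited log2 signal were between 7.40 and 7.45. Levels below are log2 signals minus the median of the array, so 0 is the median probe set, and they are not compared between genes because probe sets differ in how brightly they report. Kat2a was called lower at 2 of its 3 probe sets, by 2.44 ± 0.36 (log2, standard error, SE; limma adjusted p = 0.00832) at 1422972_s_at and by 0.74 ± 0.14 (limma adjusted p = 0.0208) at 1422971_at. The third, 1426783_at, had a difference of 0.19 ± 0.16 (limma adjusted p = 0.667). Its GCN5-/- minus GCN5+/- values were 0.57, 0.38 and -0.40 in the matched arrays A1, A2 and B, so the lines went opposite ways. At 1422972_s_at they were -1.33, -2.22 and -3.76. Where the 3 probe sets lie relative to the deleted part was not analysed here. The 3 probe sets of Kat2b, the PCAF gene, had mean levels of -0.75, -2.51 and -1.64 and were not called (limma adjusted p = 0.570, 0.988 and 0.717). Fibroblast markers were bright, with a median at percentile 99.4 of all probe sets. Of the 12, 3 were lower in GCN5-/- arrays (Col1a1, Pdgfrb and Col5a1) and 0 higher. Over all probe sets 1.81% were called lower and 1.94% higher. Of macrophage and dendritic cell markers 1 of 12 was higher (Cd53, 0.86 ± 0.10), and of T cell and natural killer cell markers 0 of 11 was called. The median percentiles of these lists were 42.0 and 41.4, with 6 of 12 and 6 of 11 markers at or above percentile 40.

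Promoter sequences from RefSeq (GRCm38.p6) were found for 10 of the 10 genes, and the 250 bases before the start were searched on both strands. The core of the interferon-stimulated response element (ISRE) was taken as GAAA and GAAA with any 2 bases between them, the gamma-activated site (GAS) as TTCNNNGAA, and an NF-kB core as GGGA and TTTCC with any base between them. Ifnar1 is shown because it had the lowest p for genotype, Jak1 and Jak2 because they differed together between the lines, and Socs1 because it holds a pair of overlapping ISRE core matches (in capitals). Each is printed from 5′ to 3′ on the strand of the gene.

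Ifnar1 promoter, chr16:91484965-91485214, + strand: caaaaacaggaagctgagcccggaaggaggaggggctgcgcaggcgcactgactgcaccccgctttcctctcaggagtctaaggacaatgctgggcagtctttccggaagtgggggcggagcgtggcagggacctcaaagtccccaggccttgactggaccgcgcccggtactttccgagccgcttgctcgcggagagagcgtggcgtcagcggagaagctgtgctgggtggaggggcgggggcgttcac
Jak1 promoter, chr4:101265224-101265473, - strand: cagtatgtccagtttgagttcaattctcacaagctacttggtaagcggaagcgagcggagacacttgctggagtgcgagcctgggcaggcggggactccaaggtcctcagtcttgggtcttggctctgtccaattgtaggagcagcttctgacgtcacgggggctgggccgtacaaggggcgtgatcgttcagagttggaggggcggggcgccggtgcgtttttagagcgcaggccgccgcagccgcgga
Jak2 promoter, chr19:29251553-29251802, + strand: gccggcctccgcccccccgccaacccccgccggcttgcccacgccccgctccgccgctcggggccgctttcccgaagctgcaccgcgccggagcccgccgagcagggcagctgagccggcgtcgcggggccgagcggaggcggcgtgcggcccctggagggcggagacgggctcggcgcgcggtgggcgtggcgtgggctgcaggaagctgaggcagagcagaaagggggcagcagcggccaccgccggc
Socs1 promoter, chr16:10785537-10785786, - strand: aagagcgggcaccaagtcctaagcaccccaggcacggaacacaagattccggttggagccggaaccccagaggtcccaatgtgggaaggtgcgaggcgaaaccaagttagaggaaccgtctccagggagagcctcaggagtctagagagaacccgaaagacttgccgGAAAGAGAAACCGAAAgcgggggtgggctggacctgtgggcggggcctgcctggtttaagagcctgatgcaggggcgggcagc

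The Socs1 matches, GAAAGAGAAA and GAAACCGAAA, begin 83 and 77 bases before the start. The ISRE core was in 2.98% of the 32851 promoter windows of this length and in 1 of the 10 genes here. It was in 11 of the 24 listed interferon-stimulated genes that had a window. Such a gene was counted if any of its windows held a match, whereas the 2.98% is a share of single windows. The GAS letters were in 2 of the 10, as TTCAGAGAA in Ifng and TTCCTGGAA in Ifnar2, against 7.02% of all windows. The NF-kB core was in 1, as GGAAAGTCCC on the opposite strand in Ifngr2, against 0.356% of all windows. The Ifnar1, Jak1 and Jak2 windows held none of these letters, and the Jak2 window was 80.8% G and C. These matches describe the exact letters only, and near matches were not counted. The Ifnb1 window, for example, holds GGGAAATTCC, which is close to the NF-kB core. A window without a match may therefore still hold such a site.

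Between the genotypes, 0 of the 18 probe sets was called (limma with line as a covariate, Benjamini-Hochberg adjusted p under 0.05), against 3.75% of all probe sets tested (1.94% higher and 1.81% lower). At an unadjusted p under 0.05 there were 3, both probe sets of Ifnar1 and 1 of Jak2. Differences, GCN5-/- minus GCN5+/-, ran from -0.41 to 0.16 on the log2 scale, with a median of -0.04 against 0.01 over all probe sets. The 95% confidence intervals of all 18 lay inside a 2-fold change, the lowest bound being -0.68 and the highest 0.51. The arrays of the genotypes did not overlap at 1 of the 18 (5.56%), against 14% of all probe sets. All 3 pairs had 1 sign at 8 of the 18 (44.4%), against 40.7%.

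**Figure D1:**
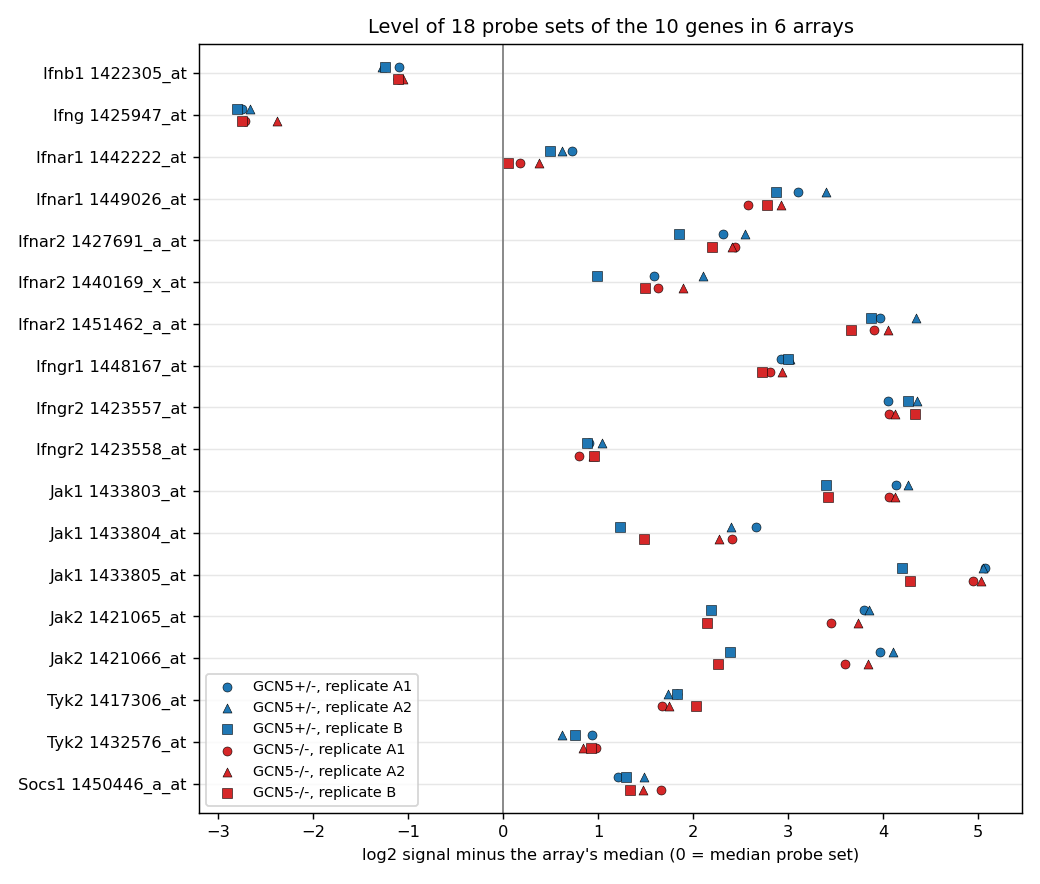
Log2 signal minus the array's median (horizontal axis) for the 18 probe sets of the 10 genes (rows), 1 point per array; colour gives the genotype and shape the replicate. Ifnb1 and Ifng lie left of 0 in all 6 arrays, and at Jak1 and Jak2 the squares of line B lie left of the line A points, while the colours mix at every probe set but 1442222_at of Ifnar1.

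The ligands came first in the pathway and were dim. Ifnb1, the interferon beta gene, had levels of -1.09, -1.27 and -1.25 in GCN5+/- cells (replicates A1, A2, B, the order used throughout), and -1.10, -1.05 and -1.11 in GCN5-/- cells. The values of the genotypes overlapped, and all 6 were below the array median; the mean lay at percentile 31.5 of all probe sets. The difference was 0.12 ± 0.09 (SE; limma adjusted p = 0.606), with a 95% interval from -0.09 to 0.32.

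Ifng had levels of -2.75, -2.66 and -2.81 in GCN5+/- arrays and of -2.71, -2.38 and -2.75 in GCN5-/- arrays. The GCN5-/- A2 array was the highest, the genotypes overlapped, and the mean lay at percentile 10.4. The difference was 0.13 ± 0.10 (limma adjusted p = 0.626). No detection calls were used here, so a low signal of either ligand cannot be told apart from background.

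Of 19 other interferon genes listed, 8 had a probe set with 1 symbol: Ifna1, Ifna2, Ifna4, Ifna5, Ifna9, Ifna11, Ifnab and Ifnz. Of these 0 was called, against 3.75% of all probe sets, and their differences ran from -0.12 to 0.12 with a median of -0.02. Ifna genes are near copies of each other, and 3 of the 8 probe sets (Ifna1, Ifna5 and Ifnab) have the _x_at suffix of probes that can bind related transcripts. At or above percentile 40 were 2 of the 8, Ifna1 and Ifnz, neither of them called.

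Ifnar1, the receptor chain that carries Tyk2, was the gene closest to a call. At 1442222_at the levels were 0.73, 0.62 and 0.49 in GCN5+/- arrays, against 0.18, 0.38 and 0.05 in GCN5-/- arrays. Every GCN5+/- array was above every GCN5-/- array. The difference was -0.41 ± 0.10 (SE), a 1.33-fold lower signal, with a 95% interval from -0.65 to -0.18, and it did not pass (limma adjusted p = 0.0656). It passed when only probe sets at or above percentile 40 were tested (limma adjusted p = 0.0436), and under the other alternatives tried the adjusted p was between 0.0514 (replicate block) and 0.424 (no line term).

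At 1449026_at, the other probe set of Ifnar1, levels were 3.10, 3.40 and 2.87 in GCN5+/- arrays and 2.58, 2.92 and 2.78 in GCN5-/- arrays. The genotypes overlapped, because GCN5-/- A2 was above GCN5+/- B. Pairs A1 and A2 differed by -0.52 and -0.48 and pair B by -0.09, and the fitted difference was -0.36 ± 0.14 (limma adjusted p = 0.218). Duplicate RNAs of line A differed by 0.29 and 0.34 at this probe set.

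Ifnar2, the other chain of the type I receptor, which binds Jak1, did not give 1 direction. At 1451462_a_at levels were 3.96, 4.34 and 3.87 in GCN5+/- arrays and 3.90, 4.05 and 3.67 in GCN5-/- arrays, a difference of -0.18 ± 0.11 (limma adjusted p = 0.472). At 1427691_a_at they were 2.31, 2.55 and 1.86 against 2.44, 2.41 and 2.20, a difference of 0.11 ± 0.12 (limma adjusted p = 0.731). At 1440169_x_at, whose probes can bind other transcripts, they were 1.59, 2.10 and 0.99 against 1.63, 1.89 and 1.50, a difference of 0.11 ± 0.17 (limma adjusted p = 0.826). The genotypes overlapped at all 3. At the last, the GCN5+/- duplicates differed by 0.52, the widest gap between duplicates at any of the 18 probe sets.

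Ifngr1, the ligand-binding chain of the interferon gamma receptor, had levels of 2.93, 3.02 and 3.00 in GCN5+/- arrays and 2.81, 2.94 and 2.72 in GCN5-/- arrays. All 3 pairs were negative (-0.12, -0.08 and -0.28), but GCN5-/- A2 reached the GCN5+/- range, and the difference of -0.16 ± 0.10 did not pass (limma adjusted p = 0.496). Ifngr2, the signalling chain that carries Jak2, had levels of 4.05, 4.36 and 4.27 against 4.06, 4.12 and 4.33 at 1423557_at. The genotypes overlapped, with a difference of -0.05 ± 0.10 (limma adjusted p = 0.866). Its second probe set, 1423558_at, ran between 0.79 and 1.04 over all arrays, with a difference of -0.04 ± 0.11 (limma adjusted p = 0.905).

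Ifnar2, Il10rb, Ifnar1 and Ifngr2 are neighbours in that order on chromosome 16 in the RefSeq table, so 3 of the 4 receptor genes lie in 1 block. Il10rb, a receptor chain for interleukin 10 and interferon lambda, had levels of 3.42, 3.79 and 3.20 in GCN5+/- and 3.83, 3.95 and 3.54 in GCN5-/- arrays at 1419455_at. Its difference of 0.30 ± 0.11 was not called (limma adjusted p = 0.194). Tmem50b, which follows Ifngr2 in the table, had a difference of -0.43 ± 0.13 (limma adjusted p = 0.125). Its levels were 3.91, 4.16 and 3.58 in GCN5+/- and 3.48, 3.36 and 3.53 in GCN5-/- arrays, so the genotypes did not overlap, and within line A alone the difference of -0.62 ± 0.12 passed (limma adjusted p = 0.0237). Over both lines, none of the probe sets of these neighbours, or of Olig1, Olig2 and Dnajc28 beside them, was called; the genotypes did not overlap at Olig1 either. Of 8 class II cytokine receptors outside the 4 described, 0 was called for genotype, against 3.75% of all probe sets. They were Ifnlr1, Il10ra, Il10rb, Il20ra, Il20rb, Il22ra1, Il22ra2 and F3, and their median difference was -0.11.

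**Figure D2:**
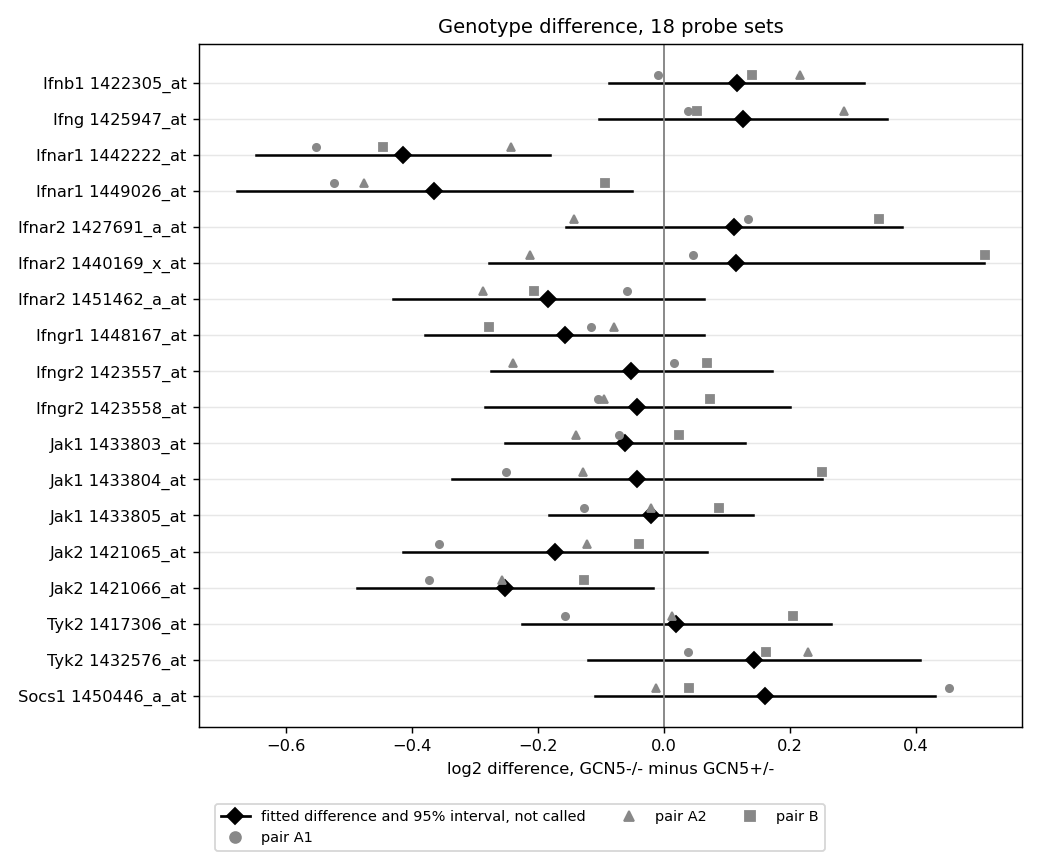
Log2 difference, GCN5-/- minus GCN5+/- (horizontal axis), for the 18 probe sets (rows); diamonds and lines are the fitted difference with its 95% confidence interval and grey symbols the 3 matched pairs. The intervals reach from -0.68 to 0.51, and those of both Ifnar1 probe sets and of 1421066_at of Jak2 lie left of 0 before adjustment.

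Of the kinases, Jak1 and Jak2 differed by line, and Tyk2 was not called for line; none of the 3 was called for genotype. Jak1, which serves both interferon receptors, had 3 probe sets, and Jak2, which serves the interferon gamma receptor, had 2. All 5 were called lower in line B, and they were the only ones of the 18 called for line. That is 27.8% of the 18, all of them probe sets of Jak1 and Jak2. Of all probe sets 13.1% were called for line, 6.7% lower and 6.43% higher. Line A has 4 arrays and line B 2, so the test speaks of these 2 lines.

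Jak2 showed the widest gap. At 1421066_at levels were 3.97 and 4.10 in GCN5+/- A1 and A2, 3.60 and 3.85 in GCN5-/- A1 and A2, and 2.39 and 2.26 in the line B arrays of GCN5+/- and GCN5-/-. The lowest line A array was above both line B arrays by more than any gap within a line. Line B minus line A was -1.56 ± 0.11 (SE; limma adjusted p = 2.79e-05), a 2.94-fold higher signal in line A, and it was -1.65 within GCN5+/- and -1.46 within GCN5-/- arrays. At 1421065_at the levels were 3.80, 3.86, 3.45 and 3.73 in line A and 2.19 and 2.15 in line B, a difference of -1.54 ± 0.11 (limma adjusted p = 3.54e-05).

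By genotype, Jak2 had negative differences in all 3 pairs at both probe sets. They were -0.37, -0.26 and -0.13 in pairs A1, A2 and B at 1421066_at and -0.36, -0.12 and -0.04 at 1421065_at. The fitted differences were -0.25 ± 0.10 (limma adjusted p = 0.260) and -0.17 ± 0.11 (limma adjusted p = 0.493). At these probe sets the line A duplicates differed by 0.25 and 0.29 in GCN5-/- and by 0.13 and 0.05 in GCN5+/- arrays.

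Jak1 gave the same order of the lines at each of its probe sets. At 1433805_at levels were 5.07, 5.05, 4.95 and 5.03 in line A and 4.20 and 4.29 in line B, a line difference of -0.78 ± 0.08 (SE; limma adjusted p = 0.000195). At 1433803_at they were 4.13, 4.27, 4.06 and 4.13 in line A and 3.40 and 3.42 in line B, a difference of -0.74 ± 0.09 (limma adjusted p = 0.000732). At 1433804_at they were 2.66, 2.40, 2.41 and 2.27 in line A and 1.23 and 1.48 in line B, a difference of -1.08 ± 0.14 (limma adjusted p = 0.000994). The 3 correspond to a signal 1.72, 1.67 and 2.11-fold higher in line A, and no line A array overlapped a line B array. By genotype the differences were -0.02 ± 0.07, -0.06 ± 0.08 and -0.04 ± 0.13 (limma adjusted p = 0.937, 0.799 and 0.924), negative in both line A pairs and positive in pair B.

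Tyk2, the kinase of the type I receptor, was not called for genotype or for line. At 1417306_at levels were 1.83, 1.74 and 1.83 in GCN5+/- arrays and 1.67, 1.75 and 2.03 in GCN5-/- arrays, a genotype difference of 0.02 ± 0.11 (limma adjusted p = 0.963). At 1432576_at they were 0.94, 0.62 and 0.76 against 0.98, 0.85 and 0.92, a difference of 0.14 ± 0.12 (limma adjusted p = 0.630). The genotypes overlapped at both, and the line differences were 0.19 ± 0.11 and -0.00 ± 0.12 (limma adjusted p = 0.376 and 0.990).

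**Figure D3:**
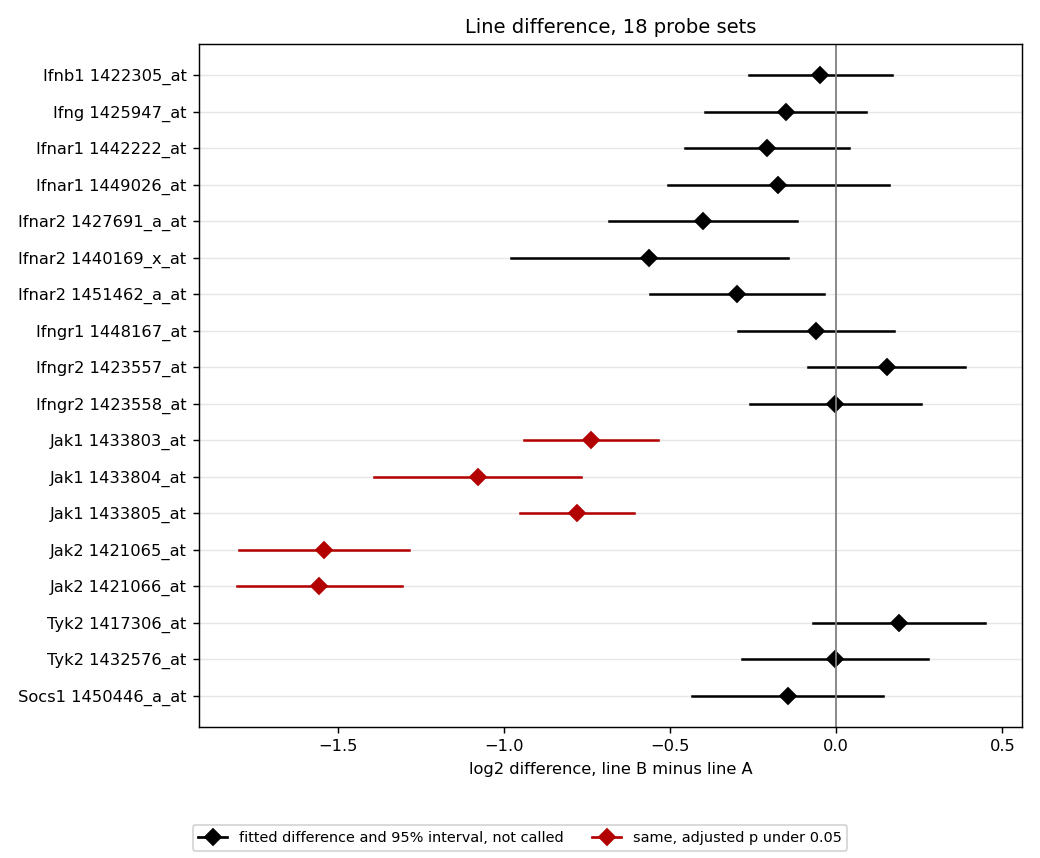
Log2 difference, line B minus line A (horizontal axis), for the 18 probe sets (rows), with 95% confidence intervals; red marks an adjusted p under 0.05. The 3 Jak1 and 2 Jak2 probe sets lie between -1.56 and -0.74, and the others between -0.56 and 0.19.

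Among the receptors, Ifnar2 was the nearest to a line call. Its 3 probe sets had line differences of -0.40 ± 0.13, -0.56 ± 0.18 and -0.30 ± 0.12 (limma adjusted p = 0.0700, 0.0832 and 0.143), and at each of them both line B arrays were below all line A arrays. Over the 18 probe sets the lines did not overlap at 10 (55.6%), against 29.6% of all probe sets. Those 10 were every probe set of Ifnar2, Jak1 and Jak2, the dim Ifng, and 1417306_at of Tyk2. Genes with several probe sets are thus counted more than once in this share. The genotype effect was not shown to differ between the lines at any of the 18: by the interaction term of limma 0 was called, against 0.06% of all probe sets, and 0 had an unadjusted p under 0.05. Within line A alone 0 was called, against 3.95% of all probe sets, and 3 had an unadjusted p under 0.05.

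**Figure D4:**
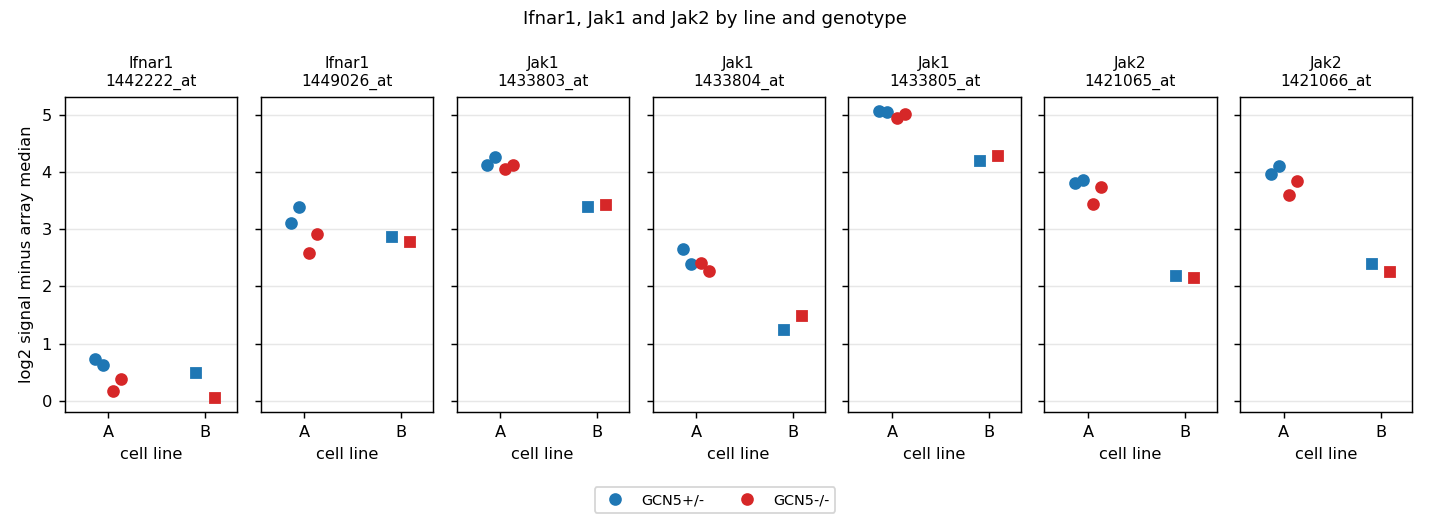
Log2 signal minus the array's median (vertical axis) of Ifnar1, Jak1 and Jak2 probe sets in lines A and B, 1 point per array, coloured by genotype. At 1421066_at of Jak2 the 4 line A arrays lie between 3.60 and 4.10 and the 2 line B arrays at 2.39 and 2.26.

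Socs1, the feedback inhibitor that interferon signalling is known to induce, had levels of 1.21, 1.49 and 1.29 in GCN5+/- arrays, against 1.66, 1.48 and 1.33 in GCN5-/- arrays. The genotypes overlapped, and only GCN5-/- A1 was above all GCN5+/- arrays. The pairs differed by 0.45, -0.01 and 0.04, and the duplicates of GCN5+/- by 0.28, so the fitted 0.16 ± 0.12 was within the spread (limma adjusted p = 0.589; 95% interval from -0.11 to 0.43). Its only probe set, 1450446_a_at, lay at percentile 67.0, and its line difference was -0.15 ± 0.13 (limma adjusted p = 0.565).

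The rest of the pathway was read from lists with 1 probe set per gene. Of 18 other SOCS family members and JAK-STAT inhibitors, 1 was higher in GCN5-/- arrays and 0 lower, against 1.94% and 1.81% of all probe sets. That gene was Usp18, which blocks signalling at Ifnar2, with a rise of 4.56 ± 0.11 (limma adjusted p = 4.01e-07) from 0.31 ± 0.79 (SD, n = 3) to 4.86 ± 0.79. Socs3 had a difference of -0.02 ± 0.11 and Socs2 of 0.07 ± 0.12, neither called (limma adjusted p = 0.971 and 0.846). The median over the 18 was 0.03.

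Downstream of the kinases, 2 of 7 STAT and Irf9 genes were higher and 0 lower, against 1.94% and 1.81% of all probe sets. Irf9, the DNA-binding partner of the type I STAT complex, rose by 2.15 ± 0.12 (limma adjusted p = 4.51e-05), and Stat2, its signalling subunit, by 1.95 ± 0.14 (limma adjusted p = 0.000175). Stat3, Stat4, Stat5a, Stat5b and Stat6 were not called. Of 28 interferon-stimulated genes 27 were higher and 0 lower, with a median of 2.07 against 0.01 over all probe sets; Lgals3bp rose by 2.93 ± 0.12, Igtp by 2.62 ± 0.11, Parp14 by 2.70 ± 0.12 and Rtp4 by 3.42 ± 0.17 (limma adjusted p up to 2.85e-05). The member not called was Samhd1 (0.26 ± 0.08, limma adjusted p = 0.148). These lists were chosen with the rise already known. Without a line term the counts were 0 of 28 and 0 of 7, and with line as a random block 15 of 28 and 2 of 7.

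Of 15 interferon-gamma response genes, 2 were higher and 0 lower, against 1.94% and 1.81% of all probe sets. Cxcl10 rose by 2.86 ± 0.18 and Cd274 by 1.27 ± 0.16 (limma adjusted p = 7.70e-05 and 0.00336). Irf1 had a difference of 0.11 ± 0.09 and Ciita, the regulator of class II antigen presentation genes, of 0.16 ± 0.10 (limma adjusted p = 0.661 and 0.502). The median over the 15 was 0.15. The list holds genes that type I interferon can also induce, Cxcl10 among them.

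Upstream of the ligands, 5 of 13 sensors, kinases and factors of interferon induction were higher and 0 lower. Over all probe sets 1.94% were called higher and 1.81% lower. The RNA sensors Ddx58 (1.91 ± 0.11), Ifih1 (2.20 ± 0.15), Dhx58 (2.43 ± 0.33) and Tlr3 (1.64 ± 0.17) and the transcription factor Irf7 (2.53 ± 0.22) rose, with limma adjusted p-values up to 0.00519, and the count was 0 without a line term and 3 with line as a random block. At Dhx58 the line A pairs rose by 3.27 and 2.89 and the line B pair by 1.12. Tbk1, Ikbke, Mavs, Ticam1, Traf6, Irf3, Irf5 and Tlr4 were not called. Upstream names the place in the pathway only. Whether the 5 genes rose before or after the interferon-stimulated genes was not tested. Of 15 other receptors that work through Jak1, Jak2 or Tyk2, 1 was higher and 0 lower: Il13ra1, a receptor chain for interleukin 13, with 0.87 ± 0.17 (limma adjusted p = 0.0286).

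**Figure D5:**
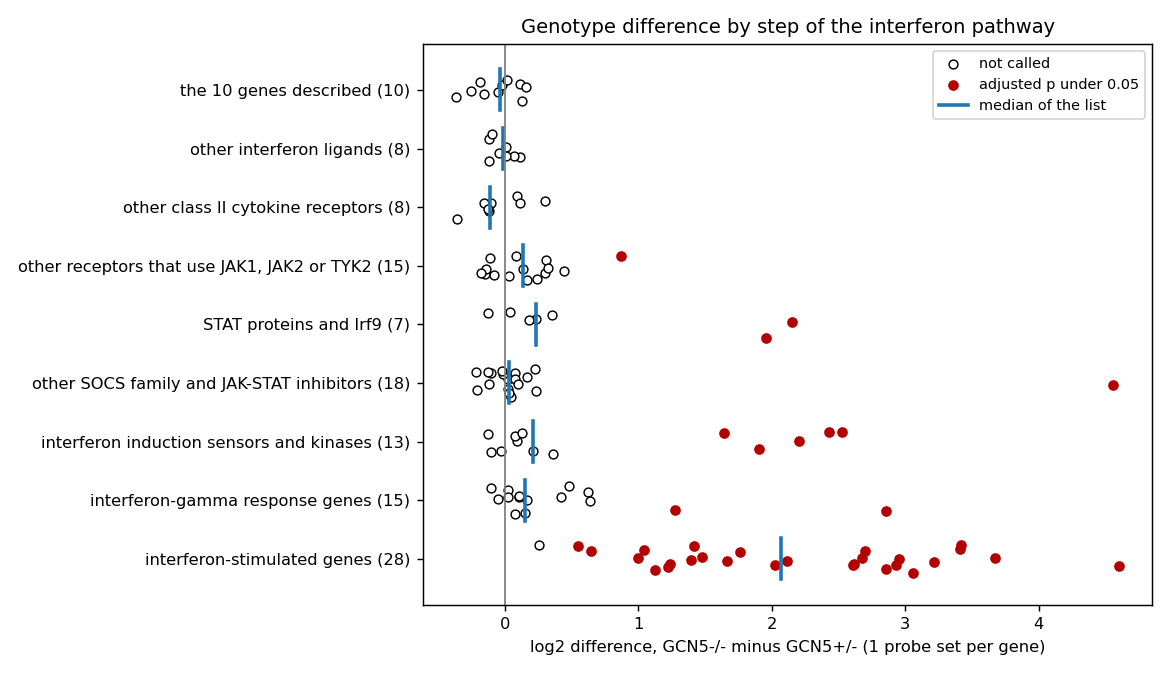
Log2 difference, GCN5-/- minus GCN5+/- (horizontal axis), of 1 probe set per gene, by list (rows, number of genes measured in brackets); filled points passed an adjusted p under 0.05 and the bar is the list's median. The 10 genes described lie between -0.36 and 0.16, while the interferon-stimulated genes lie between 0.26 and 4.60.

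In bulk RNA, fewer cells of a type and less RNA per cell cannot be told apart. By genotype, the log2 of the summed deposited signal of 12 macrophage and dendritic cell markers was between 11.1 and 11.5 in GCN5+/- and between 11.4 and 11.9 in GCN5-/- arrays. For 11 T cell and natural killer cell markers the ranges were 10.1 to 10.4 and 10.3 to 10.4. For 12 fibroblast markers they were 17.33 to 17.49 and 17.30 to 17.35. The part of these markers in the genotype differences was not tested.

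Markers also moved with the line, as Jak1 and Jak2 did. Of 12 fibroblast markers 2 were higher in line B and 5 lower, against 6.43% and 6.7% of all probe sets. The median line difference of the 12 was -0.24 (line B minus line A). Summed signals were 17.30 to 17.49 in line A and 17.30 to 17.33 in line B. Thy1, a surface marker of many fibroblasts, was 1 of the 2 higher ones, opposite to the list's median, and differed by 2.94 ± 0.19. Of 7 epithelial markers 2 were higher and 0 lower, and the median line difference of the 7 was 0.15. Their summed signals were 10.2 to 10.4 in line A and 11.5 to 11.7 in line B. Bright markers weigh most in such sums. Krt19, a keratin, differed by 2.85 ± 0.16. The median percentile of the 7 was 44.4, with 4 at or above percentile 40. Of 12 macrophage and dendritic cell markers 1 was higher (Cd68) and 2 lower (Cd53 and Csf1r), with summed signals of 11.5 to 11.9 and 11.1 to 11.4. Of 7 endothelial markers 1 was lower, and of 11 T cell and natural killer cell markers 0 was called. The part of these markers in the kinase difference between the lines was not tested.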

How the data were processed

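Total RNA was measured on 6 Affymetrix arrays. The deposited values are log2 signals per probe set, between 3.13 and 15.2; the scale was read from the values. Per the submitters' processing notes, MAS5 is listed for 6 samples and Partek for 1, in a role not given; the normalization is not given in the sources used here. Of 45101 probe sets 64 controls were left out. Symbols came from the platform annotation (34945 probe sets with 1 symbol, 932 with several, 9160 unnamed here); promoters and gene order came from RefSeq, GRCm38.p6.

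Each array was centred on its median. In R 4.3.3 with limma 3.58.1 (lmFit, eBayes with trend), genotype was fitted with line as a covariate over all 45037 probe sets, with Benjamini-Hochberg adjustment at 0.05; this leaves 3 residual degrees of freedom, and 2 with the product term. The procedure was tested on simulated data. Alternatives were the uncentred and quantile-normalized values, the level filter, no line term, a replicate block, line as a random block, averaged duplicates, no trend, and each array left out. No probe set was filtered on level, and for lists the probe set with the highest mean was used. Named genes were every probe set of the 10 genes, of Kat2a and of Kat2b, and up to 4 called genes per list by smallest p; others were named after their values were seen. The 10 genes and the lists were chosen with earlier results of these data known. No gene most alike in pattern was sought, since none of the 10 was called for genotype or interaction.

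Replicate names pair the arrays by line and, in line A, by duplicate. Deviations from the group means correlated at 0.637 (A1), 0.657 (A2) and 0.804 (B). The crossed pairs of line A correlated at 0.348 and 0.430. The main fit holds a term for line but none for the duplicate, which the replicate block adds. Any 2 arrays shared the same value at 38 to 62 probe sets, so none was a copy of another. Errors of differences are SE; the number of arrays limits the precision.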

Additional observations from a re-analysis of the deposited data

Results flagged for a closer look

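Dhx58, an RNA sensor of the interferon induction list, differed in its genotype effect between the lines. The rise in GCN5-/- cells was smaller in line B than in line A by 1.96 on the log2 scale (interaction -1.9638 ± 0.26, SE; limma adjusted p = 0.0434), with line B resting on 1 pair of arrays.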

How the results depend on the processing

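Of the 18 probe sets of the 10 genes, 0 was called for genotype under the alternatives tried except the level filter at percentile 40, which gave 1 (Ifnar1). The 5 Jak1 and Jak2 line calls numbered 5 under every alternative run, and the interaction count was 0 under every alternative run. The replicate block gave 0 calls among the 18, and 2441 over all probe sets against 1688. Over all probe sets, no line term left 1 call, line as a random block 161, and averaged line A duplicates 455; leaving out 1 array gave 471 (without GCN5+/- A1) to 1786, with 819 without GCN5+/- A2, 908 without GCN5-/- A1 and 606 without GCN5-/- A2. The cause was not tested. A few uncalled log2 differences changed sign. When arrays were left out in turn, genotype differences ran from -0.00412 to 0.21 at 1427691_a_at and -0.0831 to 0.32 at 1440169_x_at of Ifnar2, -0.12 to 0.0537 at 1423557_at and -0.10 to 0.0169 at 1423558_at of Ifngr2, -0.19 to 0.0720 at 1433804_at and -0.0740 to 0.0183 at 1433805_at of Jak1, and -0.0725 to 0.0719 at 1417306_at of Tyk2; with averaged duplicates the Jak1 values were 0.0303 and 0.00662. Line differences ran from -0.38 to 0.0285 at 1449026_at of Ifnar1, -0.15 to 0.0279 at Ifngr1, -0.0888 to 0.0835 at 1423558_at of Ifngr2 and -0.0712 to 0.0673 at 1432576_at of Tyk2; without centring the last 2 were 0.00860 and 0.00722, and with quantile normalization 0.0385 and 0.0241. Leaving out arrays for the line effect, and the counts of gene lists, were added after seeing the data. Without a line B array, that line rests on 1 array.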

Other observations

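Several other parts of cytokine signalling also differed between the 2 lines; these genes were named after their values were seen. Of 15 receptors outside the interferon group that work through Jak1, Jak2 or Tyk2, 5 were lower and 1 higher in line B, against 6.7% and 6.43% of all probe sets. Il4ra, the interleukin 4 receptor chain, averaged 2.85 ± 0.27 over the 4 line A arrays and 1.24 ± 0.62 over the 2 line B arrays (SD). Its fitted difference was -1.61 ± 0.19 (SE, with limma adjusted p = 0.000617). Lifr, the leukaemia inhibitory factor receptor, differed by -1.29 ± 0.15, Il6ra by -0.78 ± 0.14, Il13ra1 by -0.77 ± 0.18 and Il6st, the shared gp130 chain, by -0.62 ± 0.10, while Ghr, the growth hormone receptor, differed by 0.55 ± 0.11 (limma adjusted p up to 0.0243).

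Among 18 inhibitors, 4 were lower and 1 higher in line B, against 6.7% and 6.43% of all probe sets. Socs2 differed by -2.60 ± 0.13 (SE, with limma adjusted p = 3.87e-06), being 1.64 ± 0.14 over the line A arrays and -0.96 ± 0.19 over those of line B (SD), and Socs3 by -1.30 ± 0.11. Usp18 differed by -1.35 ± 0.11 and Ptpn11 by -0.42 ± 0.07, and Socs6 by 0.36 ± 0.10 (limma adjusted p = 0.0475). Stat3 and Stat5a, which these receptors use, differed by -0.58 ± 0.10 and -0.77 ± 0.13 (limma adjusted p = 0.00592 and 0.00460). F3, the tissue factor gene of the class II receptor family, differed by -1.38 ± 0.11.

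Most listed interferon-stimulated genes were also lower in line B, 16 of 28, and 1 (Xaf1, 0.81 ± 0.22) was higher. Over all probe sets 6.7% were called lower and 6.43% higher, though the lists used the brightest probe set of each gene. The median line difference of the 28 was -0.78 against 0.02 over all probe sets. Gbp2, a guanylate-binding protein gene, differed by -2.89 ± 0.23, Psmb8, an immunoproteasome subunit gene, by -2.70 ± 0.38, and Trim30a by -2.69 ± 0.30 (limma adjusted p up to 0.00174). Of 13 induction sensors, kinases and factors 3 were lower and 0 higher: Ddx58 by -0.79 ± 0.12, Ifih1 by -0.73 ± 0.16 and Tlr3 by -0.97 ± 0.18. Of 15 interferon-gamma response genes 1 was higher in line B (Icam1, 1.06 ± 0.28) and 0 lower.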
